A study of Homo sapiens with 9 samples.

Results

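DOHH2 lymphoma cells that had grown in mouse femurs for 19 days were compared with cultured DOHH2 cells taken when the mice were grafted. DOHH2 is an established human B-cell line from a transformed follicular lymphoma. The comparison was between 6 of the 9 bulk RNA-seq libraries, taken by the day in their titles. The other 3, from femurs at day 40, were in the same fit and added to the estimate of the spread. The culture group had 3 libraries of cells that had not been in a mouse. The day 19 group had 3 libraries of human CD20-positive cells from femurs of grafted RAGγc mice, a strain that lacks its own T, B and NK lymphocytes and keeps its myeloid, erythroid and stromal cells. No drug, transgene or deletion in the lymphoma cells is named for either group. Femur cells were released with enzymes, depleted of mouse CD45 and Ter119 cells on beads and sorted. No such handling is named for the culture cells, so handling and growth in the femur cannot be told apart. Library titles also carry dates, and within each group these lie months apart. Femur libraries of day 19 were dated 18, 19 and 19 days later than culture libraries with equal replicate numbers. Such a culture and femur pair is called same-period here. Whether the cells of a pair come from 1 graft is not stated. No culture or animal is named for any library, so the spread behind the p-values may be partly technical. Of 58243 gene identifiers, 15163 passed a filter on low counts and were tested.

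Follicular lymphoma arises from germinal-centre B cells, which divide fast, mutate their immunoglobulin genes and are held in place by receptors for chemokines and lipids. Bone marrow is the site of early B-cell development, where precursors recombine immunoglobulin genes with RAG1 and RAG2 while stromal cells supply chemokines and cytokines. Marrow is also a common site of spread of follicular lymphoma.

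The 6 libraries held between 21071239 and 25769552 counts. All 6 defining markers of B cells were detected, with a sum between 3503 and 4459 CPM (counts in every 1000000 of the scaled library) in culture and between 2276 and 2488 CPM at day 19. In bulk libraries fewer cells of a type and less RNA per cell cannot be told apart. The summed markers of stromal cells were 1.90 to 2.21 CPM in culture and 5.41 to 8.06 CPM at day 19, with COL1A2, COL3A1, LUM, POSTN, CXCL12 and ALPL at 0 in all 6 libraries. Most of the day 19 sum came from PDGFRB, which had 1, 2 and 0 counts in culture and 90, 142 and 117 at day 19. Myeloid markers summed to 2.76 to 5.08 and 4.98 to 6.64 CPM, with S100A8, S100A9 and FCGR3A at 0. Erythroid markers summed to at most 0.0931 CPM. T and NK cell markers summed to 22.7 to 30.0 CPM in culture and 7.36 to 8.45 CPM at day 19, with all 3 that could be tested lower and CD2 and KLRD1 at 0. Endothelial markers summed to 4.53 to 7.83 and 1.90 to 3.52 CPM, with PECAM1 lower and CDH5, KDR, TEK, EMCN and LYVE1 at 0. Plasma cell markers summed to 1310 to 1772 and 786 to 837 CPM, with 3 of 7 lower and 2 higher. All these markers are human genes, while the host cells of the femurs are mouse cells. Whether mouse reads were removed is not stated, so a sum near 0 does not bound the part of host cells. The part of other cell types in the results was not tested. One culture library stood apart from its group: in culture replicate 2 the ribosomal protein genes were the highest of all libraries and short genes were high relative to long genes, as given below beside the lists concerned. Without it 3722 genes were higher and 3920 lower at day 19, against 3994 and 4013 with it. Genes varied less between the day 19 libraries than between the culture libraries, with a median SD of log2 CPM of 0.11 against 0.17.

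At day 19, 3994 genes (26.3%) were higher and 4013 (26.5%) were lower than in culture by edgeR's quasi-likelihood test at an adjusted p under 0.05, together 52.8% of the genes tested. The shares of 26.3% and 26.5% are the background for every count of list members below. The median log2 fold change was 0.01, and 90% of genes lay between -1.12 and 1.75. Because so many genes differed, changes were also tested against a minimum of 2-fold. By that test 669 genes (4.41%) were higher and 394 (2.6%) lower, together 7.01%, and in all 1063 the libraries of the groups did not overlap. Libraries of the groups did not overlap for 61.5% of all genes tested. At the other end, 2179 genes (14.4%) had a 95% interval of the log2 fold change that stayed within 0.32 of 0, which is called bounded here (a bounded gene can also be called higher or lower). The average of the summed gains and the summed losses came to 13.5% of the counts. The shares that rose and fell differed with the culture level. Of the 2978 genes under 1 CPM in culture, 39.3% rose and 4.2% fell, while of the 2268 genes over 100 CPM, 17.8% rose and 47.6% fell. A gene near 0 in culture entered the test mainly by being higher in a femur group, so the first of these shares was partly set by the filter.

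**Figure D1:**
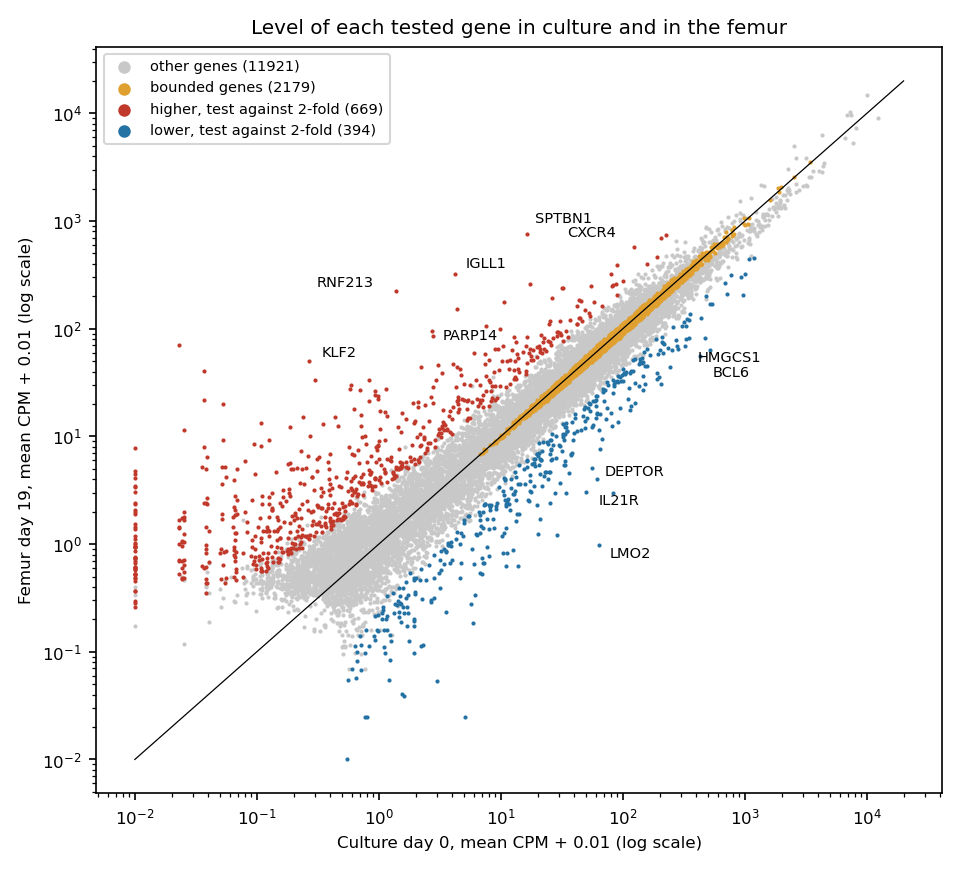
Mean level of each of the 15163 tested genes in culture (x axis) and at femur day 19 (y axis), in CPM plus 0.01 on log scales, each point a gene and the line equal levels. Red and blue points are the 669 and 394 genes that were higher and lower by the test against 2-fold, orange points the 2179 genes bounded, and low genes lie mostly above the line.

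Most of the genes with the largest rises were near 0 in culture. RNF213, a giant ubiquitin ligase, had 0.509, 1.82 and 1.78 CPM in culture and 213, 232 and 231 CPM at day 19 (log2 fold change 7.35, SE 0.21, adjusted p = 3.40e-10; on chromosome 17 from 80260866 to 80398786 on hg38). APOL3, an apolipoprotein L family gene, had 0.127, 0.0911 and 0.0775 CPM in culture and 11.4, 15.1 and 13.6 CPM at day 19 (log2 fold change 7.02, SE 0.28, adjusted p = 2.76e-09). SPTBN1, a beta chain of non-erythroid spectrin, which lines the plasma membrane, was already expressed in culture, with 17.1, 17.0 and 14.8 CPM in culture and 746, 796 and 741 CPM at day 19 (log2 fold change 5.55, SE 0.11, adjusted p = 1.26e-11; on chromosome 2 from 54456285 to 54671445). In each of the 3 genes every femur library was far above every culture library. SPTBN1 gained more CPM than any other nuclear protein-coding gene except SRRM2. PPM1H and LCN8 had 2 counts in culture against 358 and 435 at day 19, ratios of 188 (95% counting interval 51.7 to 1559) and 229 (62.9 to 1893).

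SEMA4A and MAG were among the largest falls. SEMA4A, a semaphorin, fell from 61.8 ± 10.4 to 4.01 ± 0.0503 CPM in the femur (± SD of 3 libraries; log2 fold change -3.94, SE 0.18, adjusted p = 6.84e-09), and its femur libraries spanned only 3.96 to 4.06 CPM. MAG, an adhesion molecule of the sialic acid binding lectins, fell from 12.5 ± 3.29 to 0.873 ± 0.109 CPM in the femur (-3.83 on the log2 scale). IL21R, a cytokine receptor, was among these largest falls and is described with the cytokine genes.

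Genes of the B-cell surface mostly fell. Of 28 surface antigens tested, 16 fell and 6 rose, against 26.5% and 26.3% of all genes (list median -0.39). Without culture replicate 2, 15 fell and 9 rose. Summed, the list had 8170.4, 9472 and 7028 CPM in culture and 6013, 5938 and 5848 CPM at day 19. The fall was not shared by all antigens. FCRL1, an Fc receptor-like protein of mature B cells, had 21.3, 37.7 and 19.5 CPM in culture and 196, 195 and 190.2 CPM at day 19 (log2 fold change 2.90, SE 0.18, adjusted p = 1.04e-07). CD24, a glycoprotein of precursor and naive B cells, had 211, 239.6 and 169 CPM in culture and 699, 708 and 693 CPM at day 19 (log2 fold change 1.76, SE 0.12, adjusted p = 1.83e-07). The femur libraries lay above the culture libraries for both. FCRL2 and CD72 also rose (log2 fold changes 1.70 and 1.47). In the other direction TNFRSF17, the survival receptor of plasma cells, had 6.58, 10.6 and 6.67 CPM in culture and 1.49, 1.58 and 1.01 CPM at day 19 (log2 fold change -2.54, SE 0.26, adjusted p = 6.26e-06). CD27, a marker of antigen-experienced B cells, fell by 2.20 on the log2 scale, although 39.1% of its exon length overlaps other genes. CD180, a relative of the Toll-like receptors, fell from 70.0 ± 13 to 31.1 ± 5.74 CPM in the femur. TNFRSF13B, the receptor TACI, had 0 counts in culture and 301 at day 19, and was at least 105-fold higher, with the culture group set to a floor of 3 counts.

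Transcription factors of the B lineage went both ways, with 9 of 30 higher (30%) and 13 lower (43.3%), against 26.3% and 26.5% of all genes. IKZF2, the Ikaros family factor Helios, had 18.2, 17.7 and 15.9 CPM in culture and 231, 279.6 and 267 CPM at day 19 (log2 fold change 3.91, SE 0.12, adjusted p = 4.64e-10; on chromosome 2 from 212999691 to 213152427). IRF4, a factor of activated B cells and plasma cells, had 0.212, 0 and 0 CPM in culture and 6.02, 8.48 and 3.17 CPM at day 19 (log2 fold change 6.29, SE 0.71, adjusted p = 1.27e-05). Both were higher in every femur library, and IRF4 varied more between them. Of the factors that set up the B-cell programme, EBF1 rose from 35.5 ± 1.46 to 81.2 ± 2.02 CPM in the femur, TCF3 from 918 ± 48.7 to 1538 ± 43.5 CPM in the femur and PAX5 from 509 ± 35.3 to 836 ± 37.0 CPM in the femur. ID3, an inhibitor of TCF3 and TCF4, rose from 41.9 ± 3.88 to 111 ± 18.3 CPM in the femur (log2 fold change 1.4, SE 0.11, adjusted p = 8.51e-07). MEF2C, a factor that responds to B-cell receptor signals, had 214, 230.1 and 193 CPM in culture and 66.6, 52.7 and 57.4 CPM at day 19 (log2 fold change -1.85, SE 0.10, adjusted p = 3.49e-08). FOXO1, which drives genes of precursor and germinal-centre B cells, fell from 171 ± 13.5 to 94.1 ± 2.39 CPM in the femur (-0.87). The Ikaros factor IKZF1 had 430.1 ± 36.9 CPM in culture against 374 ± 24.9 CPM in the femur (adjusted p = 0.0601), a difference that did not pass the test.

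Of 16 early B-cell genes listed 11 were tested. Of these 8 rose (72.7%) and 3 fell (27.3%), against 26.3% and 26.5% of all genes (list median 1.15). The counts were the same in every processing alternative. RAG1, RAG2 and DNTT were under 1 CPM in culture and passed the filter through femur libraries, so the higher count was partly set by the filter. Of all genes under 1 CPM in culture 39.3% rose and 4.2% fell. RAG1, the catalytic part of the V(D)J recombinase, had 0.509, 0.501 and 0.271 CPM in culture and 11.3, 16.9 and 17.2 CPM at day 19 (log2 fold change 5.15, SE 0.28, adjusted p = 2.50e-08; on chromosome 11 from 36510709 to 36593156). RAG2, its partner, had 2 counts in culture and 162 at day 19, a ratio of 85.1 (23.2 to 709). The neighbouring RAG1 and RAG2 share 7.52% and 26% of their exon length with other genes. DNTT, which adds untemplated bases at the joints, had 1 and 113 counts, a ratio of 119 (20.9 to 4731). All 3 rose from near 0. IGLL1, which with VPREB1 forms the surrogate light chain of precursor B cells, had 4.12, 4.87 and 3.57 CPM in culture and 274, 337 and 354 CPM at day 19 (log2 fold change 6.27, SE 0.20, adjusted p = 4.64e-10). Per kilobase of exon IGLL1 reached 356 CPM at day 19, against 2.88 for its partner VPREB1. SOX4, a factor of precursor B-cell survival, rose from 44.0 ± 3.42 to 125 ± 12.4 CPM in the femur, while CECR2, a chromatin remodelling factor placed in the same list, fell by 2.16 on the log2 scale. Among 10 immunoglobulin constant and joining chain genes 5 rose (50%) and 2 fell (20%), against 26.3% and 26.5% of all genes. JCHAIN, which joins secreted IgM and IgA, fell from 1116 ± 207 to 469 ± 41.6 CPM in the femur. Counts of the similar IGHG genes are uncertain, since how reads shared by several genes were counted is not stated.

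**Figure D2:**
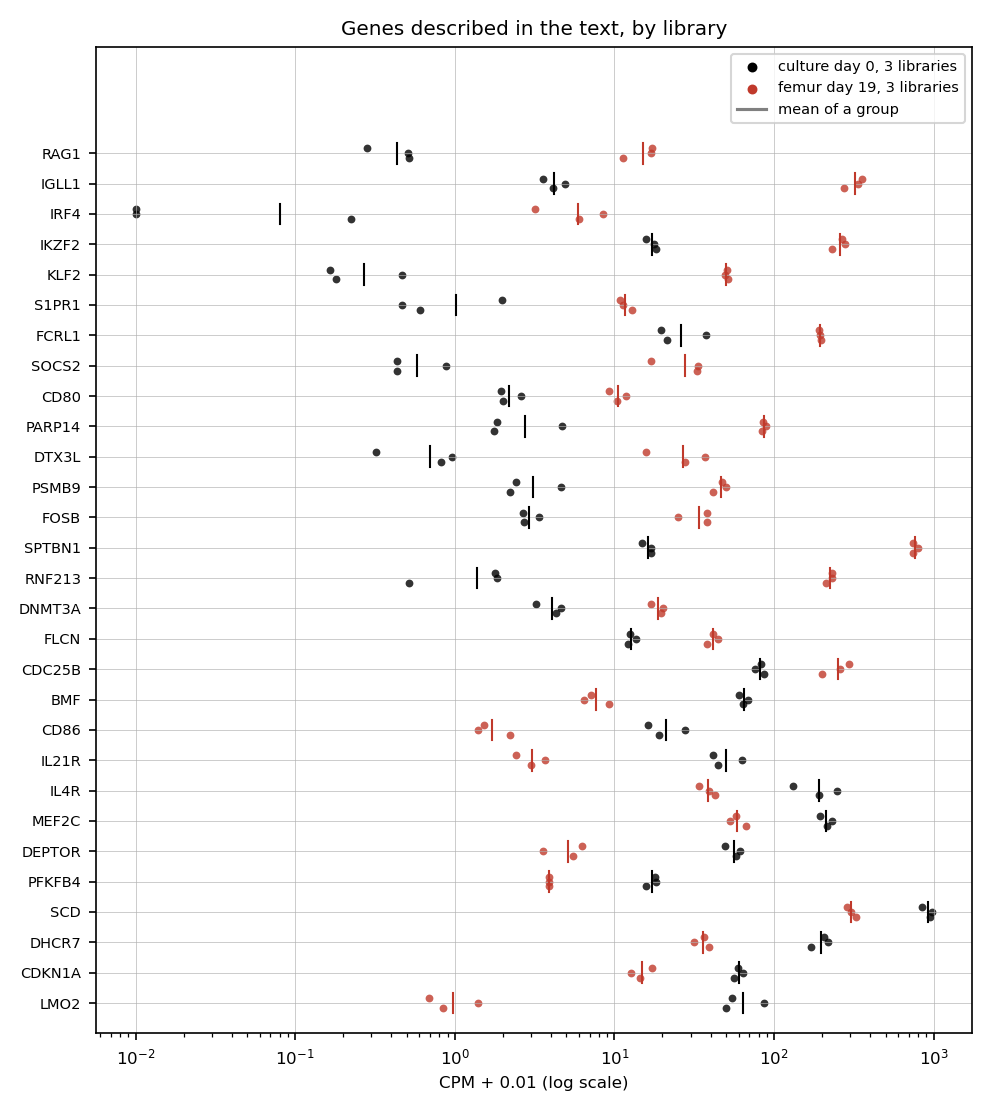
CPM plus 0.01 (x axis, log scale) of 29 genes in each of the 3 culture libraries (black) and the 3 femur day 19 libraries (red), with a vertical line at each group mean. No femur point overlaps the culture points of the same gene, and KLF2, RNF213, IRF4 and IGLL1 lie furthest to the right of culture while LMO2 lies furthest to the left.

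Among receptors that guide B cells, 9 of 22 rose (40.9%) and 7 fell (31.8%), against 26.3% and 26.5% of all genes. S1PR1, the sphingosine phosphate receptor of egress from tissue, had 0.594, 0.455 and 1.98 CPM in culture and 12.8, 11.3 and 10.8 CPM at day 19 (log2 fold change 3.48, SE 0.43, adjusted p = 3.27e-05), higher in all femur libraries, with culture replicate 3 the highest of its group. S1PR4 and GPR18 rose (log2 fold changes 1.09 and 1.10), and P2RY8, a receptor that confines germinal-centre B cells, fell (-1.16). CXCR5, the follicle-homing receptor, had a log2 fold change of -1.83, but 88.6% of its exon length overlaps BCL9L on the other strand. Of 22 integrins and adhesion molecules 5 rose (22.7%) and 7 fell (31.8%), near the shares of all genes. ITGA4, the alpha chain of the integrin VLA-4, which binds VCAM1 on marrow stroma, had 48.1, 64.2 and 49.1 CPM in culture and 140.2, 127 and 124 CPM at day 19 (log2 fold change 1.28, SE 0.10, adjusted p = 7.68e-07). ITGAL, the alpha chain of LFA-1, had 140.1, 151 and 145 CPM in culture and 26.1, 24.5 and 30.8 CPM at day 19 (log2 fold change -2.42, SE 0.09, adjusted p = 1.80e-09). Their beta chains ITGB1 and ITGB2 had log2 fold changes of 0.20 and -0.58 (adjusted p = 0.0958 and 0.154) and did not pass the test.

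In the pathway below the B-cell receptor 15 of 31 genes fell (48.4%) and 7 rose (22.6%), against 26.5% and 26.3% of all genes. Bounded members numbered 7 (22.6%), near the 22.7% of all genes from 10 to 100 CPM in culture. RASGRP3, which activates RAS downstream of PLCG2, had 151, 175 and 134 CPM in culture and 33.3, 26.1 and 32.6 CPM at day 19 (log2 fold change -2.32, SE 0.11, adjusted p = 1.09e-08). VAV3, a guanine exchange factor, had 5.39, 6.65 and 3.88 CPM in culture and 23, 23.1 and 18.2 CPM at day 19 (log2 fold change 2.02, SE 0.18, adjusted p = 2.55e-06), whereas its relative VAV1 fell from 75.6 ± 5.50 to 37.9 ± 1.54 CPM in the femur. The kinases LYN and BTK fell (-0.79 and -0.27), and SYK had 394 ± 29.2 CPM in culture against 432 ± 16.6 CPM in the femur (adjusted p = 0.189). Of 24 NF-kB subunits and targets 10 fell (41.7%) and 7 rose (29.2%), against 26.5% and 26.3% of all genes. CD83, an activation antigen, fell from 69.5 ± 4.07 to 21.4 ± 3.28 CPM in the femur, and the subunit REL, with 43.3% of its exon length shared with other genes, fell by 0.92, while the inhibitors NFKBIA and NFKBIZ rose (0.78 and 1.09).

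Genes of cytokine reception and JAK-STAT signals went both ways. In the list 10 of 28 rose (35.7%) and 9 fell (32.1%), against 26.3% and 26.5% of all genes (list median -0.03). IL4R, the receptor of the follicular helper cytokine IL-4, had 192, 248 and 132 CPM in culture and 42.9, 39.4 and 33.7 CPM at day 19 (log2 fold change -2.30, SE 0.19, adjusted p = 1.06e-06). IL21R had 44.4, 63.3 and 41.7 CPM in culture and 2.99, 3.68 and 2.41 CPM at day 19 (log2 fold change -4.04, SE 0.22, adjusted p = 3.08e-08), with 23.3% of its exon length under an antisense gene. IL10RA fell by 1.76. SOCS2, a feedback inhibitor that STAT5 induces, had 0.424, 0.865 and 0.426 CPM in culture and 33.0, 33.2 and 17.0 CPM at day 19 (log2 fold change 5.61, SE 0.46, adjusted p = 1.02e-06; on chromosome 12 from 93569814 to 93583487). CISH, a second such inhibitor, had 1 count in culture and 120 at day 19, a ratio of 126 (22.2 to 5022). PIM1, a kinase induced by STAT factors, had 28.1, 38.7 and 26.4 CPM in culture and 89.7, 81.0 and 92.9 CPM at day 19 (log2 fold change 1.5, SE 0.14, adjusted p = 3.01e-06). All 3 were higher in every femur library. The STAT5 genes diverged: STAT5A rose from 45.9 ± 7.44 to 78.4 ± 5.64 CPM in the femur and STAT5B fell from 207 ± 33.0 to 116 ± 3.03 CPM in the femur. Per kilobase of exon STAT5B was at 32.0 and STAT5A at 7.98 CPM in culture, and at 18.1 and 13.6 CPM at day 19.

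Immediate early genes, the first genes to respond to growth factors and to stress, were higher for 17 of 25 members (68%) and lower for 3 (12%). Among all genes the shares were 26.3% and 26.5%, and the list median was 0.88. Over the alternatives between 1 and 4 fell, with 1 when culture replicate 2 was left out. FOS had 0.170, 5.37 and 0.155 CPM in culture and 20.9, 16.7 and 24.1 CPM at day 19 (log2 fold change 3.50, SE 0.72, adjusted p = 0.00138), so culture replicate 2 was far above the other culture libraries and still below the femur. JUN, its partner, rose by 2.35 and ATF3, a stress-induced member of the family, by 2.82 on the log2 scale. DUSP1, a phosphatase of MAP kinases, had 2.16, 4.42 and 1.43 CPM in culture and 24.7, 17.3 and 28.1 CPM at day 19 (log2 fold change 3.15, SE 0.47, adjusted p = 1.32e-04). SPRED2, an inhibitor of RAS signalling, had 42.3, 39.6 and 31.1 CPM in culture and 7.39, 4.66 and 8.33 CPM at day 19 (log2 fold change -2.46, SE 0.19, adjusted p = 4.94e-07). Of 32 heat shock and chaperone genes 1 rose and 15 fell. Over the alternatives 1 to 4 rose (4 with a replicate block, without the filter on low counts or in a fit of the 6 libraries alone) and 9 to 20 fell. HSPA1B, the inducible HSP70, had 9.08, 7.06 and 9.85 CPM in culture and 37.3, 29.1 and 39.8 CPM at day 19, but the difference did not pass the test (adjusted p = 0.0548), and its counts are uncertain because HSPA1A is nearly identical. DNAJB1 had 100.3 ± 3.38 CPM in culture against 138 ± 23.7 CPM in the femur (adjusted p = 0.491). The part of enzymatic release and sorting in the immediate early genes was not tested.

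The ligands CD80 and CD86 are how B cells costimulate T cells. CD86, the costimulator of germinal-centre B cells, had 18.9, 27.7 and 16.2 CPM in culture and 2.20, 1.4 and 1.52 CPM at day 19 (log2 fold change -3.61, SE 0.29, adjusted p = 7.34e-07). CD80, which binds the same receptors, had 1.99, 2.60 and 1.94 CPM in culture and 10.4, 11.8 and 9.30 CPM at day 19 (log2 fold change 2.27, SE 0.17, adjusted p = 4.71e-07), with 24.9% of its exon length under TIMMDC1 on the other strand. Per kilobase of exon CD86 was at 6.10 and CD80 at 0.680 CPM in culture, and at 0.497 and 3.29 CPM at day 19, so their order reversed. LGALS9, which encodes galectin-9, rose from 11.3 ± 2.62 to 49.9 ± 6.58 CPM in the femur, and TNFRSF14, the HVEM receptor often lost in follicular lymphoma, rose by 1.81. CD274, which encodes PD-L1, had 0.580 ± 0.164 CPM in culture against 1.04 ± 0.379 CPM in the femur and did not pass the test (adjusted p = 0.0837).

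Genes of the type I interferon response and of MHC class I presentation rose together in the femur. Of 36 interferon response genes 26 rose and 4 fell (median 1.43), and 13 were higher by the test against 2-fold. Both lists were known from earlier results of these data to be raised, so the counts describe and add no support. Promoters of some members that rose are shown, because many genes of both lists carry the letters read by interferon regulatory factors (IRF). Some members that fell carry them too, as given below. Each stretch is from the RefSeq promoter table on GRCh38.p14, 5′ to 3′ on the gene's strand, ends at or before the first listed start of the gene, and has in capitals the core AANNGAAA or its reverse complement TTTCNNTT.

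PARP14, chr3:122680772-122680838, plus strand: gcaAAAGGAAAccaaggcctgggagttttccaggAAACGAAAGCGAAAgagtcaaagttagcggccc
DTX3L, chr3:122564288-122564337, plus strand: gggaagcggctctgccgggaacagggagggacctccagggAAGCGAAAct
XAF1, chr17:6755975-6756045, plus strand: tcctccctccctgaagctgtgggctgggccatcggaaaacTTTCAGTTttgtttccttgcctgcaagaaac
SAMD9L, chr7:93148386-93148471, minus strand: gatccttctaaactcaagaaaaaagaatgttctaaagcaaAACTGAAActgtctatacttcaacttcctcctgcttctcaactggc
TAP1, chr6:32853785-32853872, minus strand: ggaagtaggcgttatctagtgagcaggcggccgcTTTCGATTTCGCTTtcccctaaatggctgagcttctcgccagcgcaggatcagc

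PARP14, an ADP-ribosyltransferase whose stretch holds 3 core matches, had 1.74, 4.69 and 1.82 CPM in culture and 84.6, 88.9 and 84.8 CPM at day 19 (log2 fold change 4.99, SE 0.23, adjusted p = 9.24e-09). DTX3L, a ubiquitin ligase that pairs with PARP9, had 0.806, 0.956 and 0.310 CPM in culture and 27.8, 36.7 and 15.8 CPM at day 19 (log2 fold change 5.29, SE 0.45, adjusted p = 1.41e-06). SAMD9L, an antiviral restriction factor, had 1.4, 1.96 and 2.91 CPM in culture and 19.8, 20.6 and 15.5 CPM at day 19 (log2 fold change 3.14, SE 0.27, adjusted p = 1.49e-06). The femur libraries of each lay above all culture libraries. XAF1, an interferon-induced death gene, rose by 3.92 on the log2 scale, although 38.3% of its exon length overlaps another gene. The rise did not extend to all interferon genes. OAS1, ISG20, BST2 and STAT2 fell (-0.66, -0.82, -0.74 and -0.21), and IFI44L and IFI6 had 1.23 and 3.19 CPM at day 19 against 1.27 and 2.70 in culture (adjusted p = 0.934 and 0.597).

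In the class I pathway 17 of 21 genes rose and 3 fell (median 0.85). The 3 that fell, CALR, CANX and PDIA3, encode general chaperones of the endoplasmic reticulum. TAP1, a subunit of the peptide transporter, had 22.1, 37.8 and 26 CPM in culture and 64.8, 68.6 and 67.8 CPM at day 19 (log2 fold change 1.23, SE 0.14, adjusted p = 2.13e-05). PSMB9, an immunoproteasome subunit with 10.2% of its exon length shared with other genes, had 2.21, 4.60 and 2.40 CPM in culture and 41.7, 49.8 and 47.2 CPM at day 19 (log2 fold change 3.93, SE 0.20, adjusted p = 1.65e-08). HLA-E, a ligand of NK-cell receptors, rose from 133 ± 29.1 to 324 ± 2.20 CPM in the femur. The heavy chain genes HLA-B and HLA-C rose by less (log2 fold changes 0.65 and 0.81), and their counts are uncertain because they are near-identical paralogs. Of 18 class II genes tested 7 fell (38.9%) and 2 rose (11.1%), against 26.5% and 26.3% of all genes. HLA-DRA had 408 ± 99.7 CPM in culture against 377 ± 36.4 CPM in the femur (adjusted p = 0.561). CIITA, the class II transactivator, which overlaps DEXI over 23.9% of its exon length, had 67.8, 64.0 and 69.4 CPM in culture and 144, 150.5 and 133 CPM at day 19 (log2 fold change 1.09, SE 0.08, adjusted p = 2.84e-07).

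The IRF core stood in the promoter window of 25 of 28 interferon list genes (89.3%) and 12 of 17 class I genes (70.6%), against 16.3% of the 9548 tested coding genes with a window and 21.8% of those higher by over 2-fold. A window ran from 250 bases before to 50 after the start, and a match is a description of the letters, not a site in use. The core was in 23.2% of all 27305 windows. Interferon genes are known for this motif, so the share describes the list. The core was also in the windows of OAS1, ISG20, BST2 and CALR, which fell, and of IFI44L and IFI6, which did not pass the test. The ETS motif CCGGAAGT (reverse complement ACTTCCGG) was in 12.4% of the 1841 windows of genes bounded, but in 3 of 377 windows (0.796%) of genes higher and 2 of 241 (0.83%) of genes lower by over 2-fold, against 9.38% of all tested and 4.44% of the whole table. The AP-1 motif TGANTCA was in 8.22%, 7.05% and 2.93% of the windows of genes higher, lower and bounded, in 4.16% of all tested and in 7.76% of the whole table. These groups differed in culture level: of genes under 1 CPM in culture 0 were bounded and 423 were higher by over 2-fold. The motif shares were not matched for level.

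**Figure D3:**
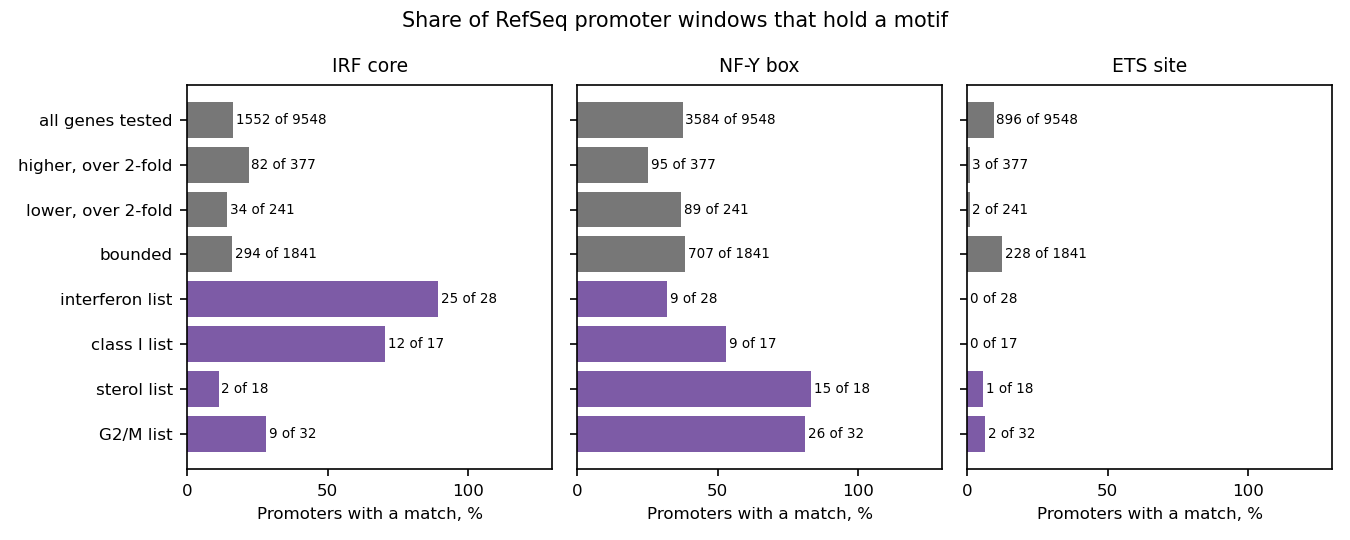
Share of RefSeq promoter windows (x axis, %) with a match to the IRF core, the NF-Y box (letters CCAAT) and the ETS motif, for tested coding genes by their change at day 19 (grey) and for 4 gene lists (purple), with the counts beside each bar. The IRF core is in 25 of 28 interferon list windows, the NF-Y box in 15 of 18 sterol list windows, and the ETS motif in 3 of 377 and 2 of 241 windows of genes that changed by over 2-fold.

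Genes of sterol synthesis and uptake fell in 24 of 25 cases, 16 of them by the test against 2-fold (median -1.51). Summed, they had 4098, 4546 and 4307 CPM in culture and 1449, 1318 and 1355 CPM at day 19, a fall of 3.14-fold. Every femur sum was below every culture sum. The NF-Y factor, which binds the letters CCAAT, is known to act with the sterol factor SREBP, and promoters of 2 of the genes are shown with CCAAT or its reverse complement ATTGG in capitals, from the same table.

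MSMO1, chr4:165327595-165327668, plus strand: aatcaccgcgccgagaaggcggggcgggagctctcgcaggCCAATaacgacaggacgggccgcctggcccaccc
MVD, chr16:88663132-88663216, minus strand: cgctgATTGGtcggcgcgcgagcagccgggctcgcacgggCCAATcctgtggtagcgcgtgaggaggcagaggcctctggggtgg

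MSMO1, a demethylase of late cholesterol synthesis, had 104, 122 and 104 CPM in culture and 24.4, 21.1 and 21.7 CPM at day 19 (log2 fold change -2.29, SE 0.11, adjusted p = 1.42e-08). MVD, which makes the isoprene unit, had 169.8, 196 and 201 CPM in culture and 34.5, 34.5 and 33.4 CPM at day 19 (log2 fold change -2.47, SE 0.08, adjusted p = 4.64e-10). DHCR7, the last enzyme of the pathway, had 169.7, 217 and 205 CPM in culture and 38.9, 31.5 and 36.5 CPM at day 19 (log2 fold change -2.47, SE 0.11, adjusted p = 4.86e-09). For each of the 3 genes every femur value was below every culture value. CCAAT was in 15 of 18 sterol windows (83.3%) and 26 of 32 windows of G2/M genes (81.2%), against 37.5% of all tested and 35.7% of the whole table. The sterol element TCACNCCAC was in 1 of 18 sterol windows, against 1.19% of all tested and 1.15% of the whole table. In fatty acid synthesis 13 of 18 genes fell and 2 rose. SCD, the desaturase of stearate, had 949, 979 and 847 CPM in culture and 328, 302 and 285 CPM at day 19 (log2 fold change -1.60, SE 0.08, adjusted p = 2.17e-08). ACSS2, which makes acetyl-CoA from acetate, fell from 10.7 ± 2.75 to 2.55 ± 0.994 CPM in the femur, and LPIN1, a phosphatidate phosphatase, rose from 48.4 ± 11.1 to 81.3 ± 3.70 CPM in the femur.

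Genes of energy metabolism moved by smaller steps. In glycolysis 14 of 24 fell (58.3%) and 2 rose (8.33%), against 26.5% and 26.3% of all genes. The lower count was 10 to 14 over the alternatives. PFKFB4, which sets the level of a glycolytic activator, had 15.7, 18.1 and 17.9 CPM in culture and 3.87, 3.86 and 3.89 CPM at day 19 (log2 fold change -2.15, SE 0.13, adjusted p = 5.40e-08). ENO1 had 1616 ± 54.5 CPM in culture against 1553 ± 12.8 CPM in the femur, and HK2 and SLC2A1 had log2 fold changes of 0.06 and 0.01. Of 53 nuclear subunits of oxidative phosphorylation 45 fell, none by the test against 2-fold (median -0.45). COX7C, a small subunit of complex IV, fell from 214 ± 58.8 to 112 ± 2.39 CPM in the femur. The 13 genes of the mitochondrial genome went the other way, with 9 higher and none lower, and MT-CYB, the complex III subunit, rose from 2541 ± 495 to 5003 ± 708 CPM in the femur (log2 fold change 0.98, SE 0.15, adjusted p = 1.59e-04). Summed, the 13 genes had 56366, 54731 and 40299 CPM in culture and 71111, 78629 and 66072 CPM at day 19. All genes of the mitochondrial genome, ribosomal and transfer RNA genes included, took 4.83% to 6.07% of counts in culture and 7.54% to 8.67% at day 19. The part of RNA quality in this share was not tested. Without culture replicate 2 all 13 mitochondrial genes were called higher and 41 of the nuclear subunits lower. The mitochondrial ribosome and import list fell in 31 of 43 cases. TFRC, the transferrin receptor that brings in iron, had 309, 338 and 369 CPM in culture and 128, 111 and 129 CPM at day 19 (log2 fold change -1.47, SE 0.11, adjusted p = 3.17e-07).

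In lists of protein synthesis, secretion and breakdown most members fell, by less than 2-fold. Of 57 genes for cytosolic ribosomal proteins 53 fell and none rose (median -0.48). Summed, they had 84212, 113703 and 82962 CPM in culture and 69700.3, 66198 and 67092 CPM at day 19, with culture replicate 2 the highest, and without that library 48 fell. EEF2, the translocation factor of the ribosome, had 7095, 9113 and 6851 CPM in culture and 5541, 5072 and 5293 CPM at day 19 (log2 fold change -0.54, SE 0.11, adjusted p = 0.0017). Of 33 proteasome genes 27 fell, or 12 when libraries were scaled by their total counts alone. Of 20 aminoacyl tRNA synthetases 15 fell, or 10 with that scaling, and TARS1 rose (log2 fold change 0.48). Of 35 genes of the secretory pathway 3 rose and 27 fell, among them HSPA5, the main chaperone of the endoplasmic reticulum (445 ± 62.2 to 332 ± 22.7 CPM in the femur). None of the members of these 4 lists changed by the test against 2-fold. Of 42 genes of ribosome biogenesis 18 fell (7 with the other scaling), 1 rose and 23 were bounded. Among all genes the bounded share depended on level, at 22.7% from 10 to 100 CPM in culture and 30.6% over 100 CPM. NCL, a nucleolar organiser of ribosome assembly, had 1913 ± 201 CPM in culture against 1841 ± 66.0 CPM in the femur.

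Short genes fell more than long genes, which touches these lists. When 8438 coding genes over 10 CPM in culture were put in 5 equal classes by exon length, the class of the shortest (207 to 3163 bases) had a median log2 fold change of -0.27, and the class of the longest (8565 bases and over) one of 0.05. In the shortest class 53.2% of genes fell and 9% rose, and in the longest 26.9% fell and 33.6% rose. The shortest class was below the longest in each of 3 classes of culture level. The median exon length was 2615 bases in the oxidative phosphorylation list and 3271 in the ribosomal protein list, against 6901 in the splicing list and 10279 in the chromatin list described next. Against the culture mean, culture replicate 2 had medians of 0.13 in the shortest class and -0.06 in the longest, culture replicate 1 had -0.07 and 0.04, and culture replicate 3 had -0.07 and 0.02. All 3 femur libraries were at -0.27 or -0.28 in the shortest class, below each culture library. The part of exon length in the change of these lists was not tested.

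**Figure D4:**
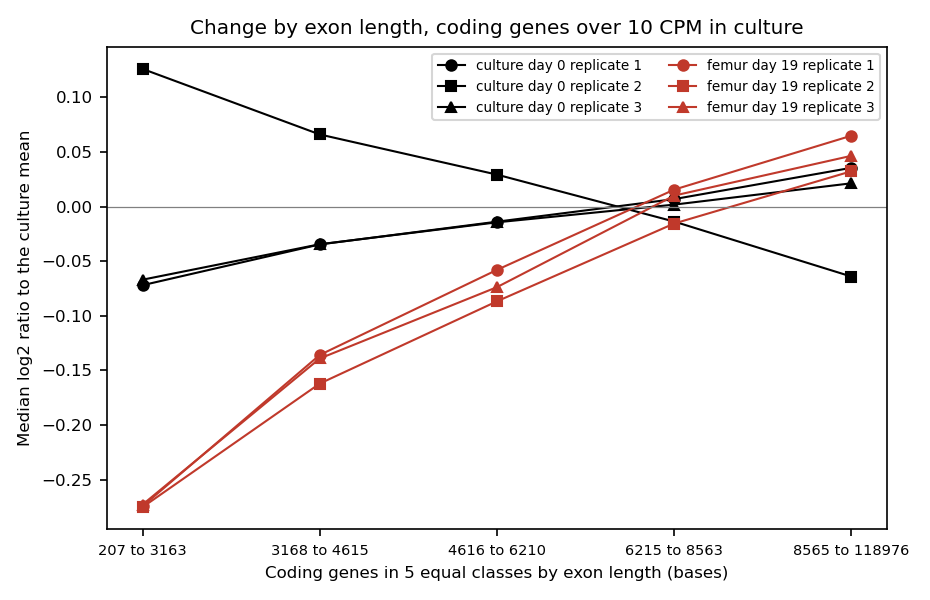
Median log2 ratio of each library to the culture mean (y axis) for 8438 coding genes over 10 CPM in culture, in 5 equal classes by exon length in bases (x axis), with culture libraries in black and femur day 19 libraries in red. The 3 femur lines lie near -0.27 in the shortest class and between 0.03 and 0.07 in the longest, and culture replicate 2 (black squares) slopes the other way.

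Of 37 chromatin regulators 19 rose (51.4%) and 4 fell (10.8%), against 26.3% and 26.5% of all genes (list median 0.27). DNMT3A, a methyltransferase that sets new DNA methylation, had 4.29, 4.60 and 3.22 CPM in culture and 19.4, 20.1 and 16.9 CPM at day 19 (log2 fold change 2.22, SE 0.14, adjusted p = 1.32e-07). TET1, which oxidises methylated cytosine, had 8.27, 5.37 and 6.63 CPM in culture and 21.9, 19.2 and 19.5 CPM at day 19 (log2 fold change 1.58, SE 0.14, adjusted p = 1.57e-06), and TET2 rose by 1.39. UHRF1, the guide of maintenance methylation, rose from 324 ± 10.5 to 641 ± 56.3 CPM in the femur, while its partner DNMT1 had 785 ± 58.3 CPM in culture against 755 ± 33.9 CPM in the femur. Of the modifiers often mutated in follicular lymphoma, KMT2D and CREBBP rose (0.69 and 0.35) and EZH2 was bounded (0.08). HDAC1, a histone deacetylase, fell from 399.6 ± 34.3 to 238 ± 6.85 CPM in the femur. Splicing factors rose in 21 of 40 cases (52.5%) and fell in 3 (7.5%), with 15 bounded (37.5%). SRRM2, a large spliceosome protein, had 1475, 1135 and 1458 CPM in culture and 2024, 2269 and 2196 CPM at day 19 (log2 fold change 0.67, SE 0.10, adjusted p = 1.68e-04), and CLK1, a kinase of splicing factors, rose from 63.9 ± 13.2 to 121 ± 12.5 CPM in the femur. Of 26 abundant long noncoding RNAs 13 rose and 1 fell, with SNHG12, a snoRNA host, higher from 49.6 ± 7.66 to 102 ± 2.79 CPM in the femur and SNHG5 lower from 599.7 ± 165 to 363 ± 15.0 CPM in the femur. Over all biotypes the tested long noncoding genes were called higher in 28.7% and lower in 14.2% of cases, and coding genes in 25.4% and 30.7%.

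Genes of the cell cycle were counted by phase. Of 40 G1/S and replication genes 16 rose (40%) and 8 fell (20%), against 26.3% and 26.5% of all genes. Bounded members numbered 18 (45%), against 14.4% of all genes and 30.6% of those over 100 CPM in culture. With total counts as the only scaling 22 rose and 3 fell. E2F8, a late repressor of the E2F family, rose from 50.8 ± 5.82 to 96.4 ± 1.02 CPM in the femur, and MCM7, a part of the replicative helicase, from 908 ± 27.5 to 1187 ± 8.07 CPM in the femur. PCNA, the sliding clamp, had 331 ± 31.2 CPM in culture against 359 ± 10.7 CPM in the femur. Of 39 G2/M genes 21 fell (53.8%) and 3 rose (7.69%), or 15 and 7 genes with the other scaling. CDK1, the mitotic kinase, fell from 213 ± 21.2 to 133 ± 7.33 CPM in the femur. CDC25B, a phosphatase that activates it, had 87.1, 76.0 and 82.3 CPM in culture and 199, 257 and 294 CPM at day 19 (log2 fold change 1.61, SE 0.16, adjusted p = 4.14e-06). The inhibitors of cyclin-dependent kinases also parted. CDKN1A, which encodes p21, had 56.5, 63.6 and 59.6 CPM in culture and 14.6, 12.6 and 17.2 CPM at day 19 (log2 fold change -2.01, SE 0.16, adjusted p = 5.87e-07). CDKN1B, which encodes p27, had 35.1, 44.9 and 35.2 CPM in culture and 89.3, 79.2 and 95.5 CPM at day 19 (log2 fold change 1.20, SE 0.11, adjusted p = 2.48e-06). For both genes the groups did not overlap.

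Of 26 targets of p53 14 fell (53.8%) and 6 rose (23.1%), against 26.5% and 26.3% of all genes (list median -0.29). Besides CDKN1A, falls were in SESN1, a stress-induced regulator of mTOR (29.8 ± 2.61 to 8.23 ± 0.797 CPM in the femur), and ZMAT3, an RNA-binding protein (106 ± 11.6 to 47.4 ± 6.12 CPM in the femur). GADD45A, a DNA damage gene that other pathways also induce, rose from 24.8 ± 6.94 to 52.1 ± 3.24 CPM in the femur. Among BCL2 family and death genes 9 of 30 rose (30%) and 10 fell (33.3%), near the 26.3% and 26.5% of all genes. BMF, a BH3-only killer, had 64.3, 69.1 and 60.0 CPM in culture and 9.28, 6.47 and 7.10 CPM at day 19 (log2 fold change -3.08, SE 0.12, adjusted p = 3.27e-09). HRK, a further BH3-only killer, had 60.1, 60.0 and 52.4 CPM in culture and 171, 175 and 185 CPM at day 19 (log2 fold change 1.62, SE 0.09, adjusted p = 2.36e-08), so these relatives moved in opposite directions. CASP10, an initiator caspase, rose from 0.711 ± 0.0920 to 9.89 ± 0.874 CPM in the femur (log2 fold change 3.78, SE 0.20, adjusted p = 2.25e-08). BCL2 itself, which the translocation of follicular lymphoma activates, rose by 0.26 on the log2 scale (259 ± 23.6 to 309 ± 9.08 CPM in the femur).

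Genes of nutrient sensing and of exchange with other cells held single large changes. In the mTOR list 12 of 35 fell (34.3%) and 6 rose (17.1%), against 26.5% and 26.3% of all genes. DEPTOR, an inhibitor bound to mTOR, had 58.0, 61.2 and 49 CPM in culture and 5.50, 3.54 and 6.21 CPM at day 19 (log2 fold change -3.46, SE 0.19, adjusted p = 3.57e-08). FLCN, which signals amino acid supply to mTOR at the lysosome, had 12.1, 13.7 and 12.6 CPM in culture and 38.1, 44.4 and 41.6 CPM at day 19 (log2 fold change 1.69, SE 0.10, adjusted p = 4.73e-08). ULK1, a kinase that starts autophagy, rose from 33.9 ± 3.22 to 96.2 ± 8.20 CPM in the femur. Of 19 secreted ligands tested 9 rose (47.4%) and 6 fell (31.6%), against 26.3% and 26.5% of all genes. By the test against 2-fold 4 rose and 4 fell (together 42.1%, against 7.01% of all genes). Summed, the list fell from 1161 ± 68.2 to 732 ± 4.24 CPM in the femur. SEMA4A, described above, was a member that fell, and the next 3 genes are members that rose. INHBA, a chain of activin A, had 0.297, 0.182 and 0.0388 CPM in culture and 3.47, 3.54 and 1.86 CPM at day 19 (log2 fold change 4.09, SE 0.47, adjusted p = 1.79e-05). SEMA4D, a semaphorin that acts on bone cells, had 29.6, 24.9 and 25.1 CPM in culture and 77.6, 83.3 and 85.1 CPM at day 19 (log2 fold change 1.63, SE 0.08, adjusted p = 2.02e-08). VEGFA, the angiogenic factor, rose from 37.8 ± 2.94 to 67.6 ± 2.33 CPM in the femur. Of 23 hypoxia response genes 7 rose (30.4%) and 6 fell (26.1%), near the shares of all genes. The list had no common direction (median 0.01).

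Over 45 gene lists, 1230 of 1349 members were tested, and 298 were higher and 539 lower. Together 68.0% were called, against 52.8% of all genes and 56.1% of coding genes. Members were chosen with earlier results of these data known, so this share may be partly set by that choice and adds no support. The shares also differed with culture level, as given above, and no share matched for level was computed. The lists with the highest medians were interferon response (1.43), early B-cell genes (1.15), immediate early genes (0.88) and class I presentation (0.85). Those with the lowest were sterol synthesis (-1.51), fatty acid synthesis (-0.58) and ribosomal proteins (-0.48). Members of a list can vary together between libraries, so a count of called members is not a count of independent results.

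**Figure D5:**
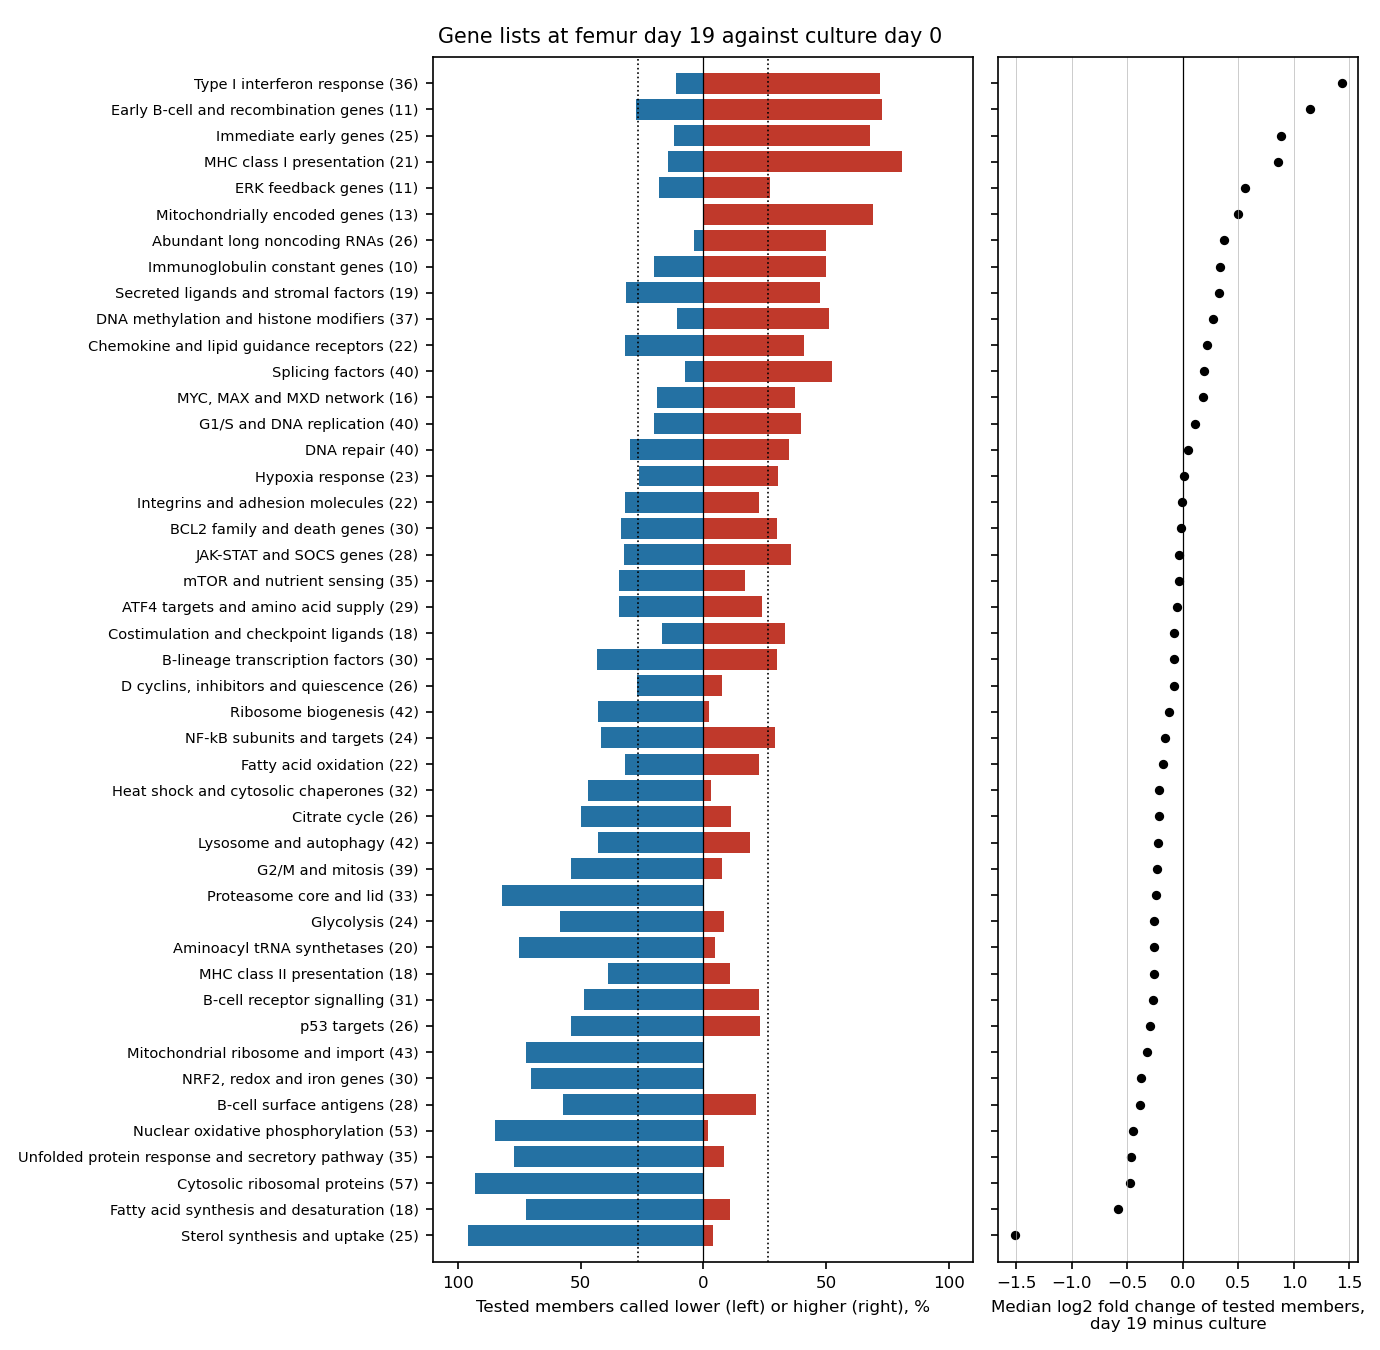
For 45 gene lists (number of tested members in brackets), the percent of members called lower (blue, left) and higher (red, right) at femur day 19 against culture, with dotted lines at the 26.5% and 26.3% of all tested genes, and the median log2 fold change of the members (right panel). Lists are ordered by that median, from interferon response at the top to sterol synthesis at the bottom.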

How the data were processed

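Bulk RNA-seq libraries of DOHH2 cells were read as deposited gene tables of raw counts, 1 per library, and grouped by the day in the labels. Per the submitters' processing notes, FastQC 0.11.5, STAR 2.5.2a, featureCounts 1.4.6, DESeq2 1.40.1 and the build hg38 were used, and the counts that the authors deposited are whole numbers per gene, not normalized. Not given in the sources used here: the annotation release, the strand setting, how reads with several matches were treated, trimming, and whether mouse reads were removed. Genes that overlap or have near-identical copies are therefore uncertain (CD72, TNFRSF14, TNFRSF13B, SNHG12, FLCN, PDIA3 and HLA-B, besides those said to overlap in the text), and the part of mouse reads in femur counts was not tested.

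Symbols, positions and exon lengths came from a gene name table and from GENCODE 29, which placed 57980 of 58243 identifiers and left 263 unplaced. Analysis used R 4.3.3 with edgeR 4.0.16. Low genes were removed with filterByExpr and libraries were scaled by TMM over all 9 libraries, 3 of them femur day 40. All 9 libraries were in 1 fit, so the day 40 libraries also entered the spread behind the p-values and SE. A quasi-likelihood F-test on that fit compared day 19 with culture, with Benjamini-Hochberg adjustment over 15163 genes and a threshold of 0.05. A further test (glmTreat) was against a log2 fold change of 1. A gene was called bounded where the 95% interval of its log2 fold change lay within 0.32 of 0. CPM are counts in every 1000000 of the TMM-scaled library, and means are given ± SD over 3 libraries. Error of ratios and floors of 3 counts covers counting only. The fit was tested on simulated data. Alternatives were 2 other scalings, 2 other filters, a fit of the 6 libraries alone, DESeq2 1.42.0, limma 3.58.1 with voom, a replicate block and leaving out each library.

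Members and lists were chosen with earlier results of these data known. A few genes that the rule names are not reported here. The naming rule took the 12 largest changes each way among called coding genes of at least 5 CPM whose libraries did not overlap, 2 each way per list (or the member with the smallest p), the 10 largest gains and losses of CPM, the 8 highest bounded genes and a fixed set. These genes fell outside the rule and were chosen after their values were seen: RAG2, PDGFRB, PECAM1, FCRL2, CD72, CD27, CD180, TNFRSF13B, IKZF2, EBF1, PAX5, ID3, MEF2C, FOXO1, IKZF1, DNTT, VPREB1, SOX4, S1PR4, GPR18, P2RY8, ITGA4, ITGB1, ITGB2, VAV1, LYN, BTK, SYK, REL, NFKBIA, NFKBIZ, IL10RA, CISH, STAT5A, STAT5B, JUN, ATF3, HSPA1B, DNAJB1, TNFRSF14, CD274, XAF1, SAMD9L, TAP1, OAS1, STAT2, IFI44L, IFI6, PDIA3, HLA-E, HLA-B, HLA-C, HLA-DRA, MSMO1, HK2, SLC2A1, COX7C, HSPA5, TET2, UHRF1, DNMT1, KMT2D, CREBBP, EZH2, SNHG12, MCM7, CDK1, ZMAT3 and INHBA.

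Promoter windows are from the RefSeq table on GRCh38.p14, using the first listed start of each gene, and matched 9548 of the 11679 tested coding genes of the 27305 in the table. In all 11 motifs were searched on both strands, and none of the capitals printed overlaps another motif of the set.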

Additional observations from a re-analysis of the deposited data

How the results depend on the processing

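The counts of 3994 higher and 4013 lower genes stayed within 1.5-fold under every alternative tried. No called gene changed sign in an alternative, and 5355 of 8007 (66.9%) were called in all of them. Scaling by total counts alone moved the median log2 fold change by 0.09 and gave 4652 higher and 3216 lower genes, so that 59.1% of calls were higher against 49.9%. The 2-fold test gave 492 higher and 286 lower genes with DESeq2 and 483 and 276 with limma voom, against 669 and 394. Leaving out each library in turn gave 3390 to 3722 higher and 3414 to 4050 lower genes, 576 to 632 higher and 319 to 417 lower by the 2-fold test, and 1685 to 2521 bounded genes.

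Same-period culture and femur libraries did not deviate together (correlations 0.03, -0.05 and 0.12), so the replicate numbers were not used as pairs. With a replicate block 3662 genes were higher and 3765 lower, 618 and 386 by the 2-fold test, and 2031 were bounded. Of 207 genes named by the rule, 14 lost their call in some alternative, 6 gained one and none reversed. Of 90 list counts 21 moved by over 1.5-fold somewhere. The bounded count was not run under the filter, DESeq2 and voom alternatives. With 3 libraries a group the depth limits low genes most, and a gene with 0 counts in culture is given only as a bound.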

Other observations

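Of 30 genes of redox and iron handling 21 fell and none rose (median -0.38, against 0.01 for all genes). For comparison, 26.3% of all genes were called higher and 26.5% lower. Of 29 targets of ATF4, the factor of amino acid stress, 10 fell (34.5%) and 7 rose (24.1%). Of 42 lysosome and autophagy genes 18 fell (42.9%) and 8 rose (19%). Of 40 DNA repair genes 14 rose (35%) and 12 fell (30%), or 7 fell with libraries scaled by total counts alone. By chromosome, genes of chromosome 16 were called higher in 33.1% and lower in 19% of cases. Those of chromosome 22 were called so in 33.5% and 23.3%. Genes of chromosome 8 were called higher in 18.3% and lower in 36.5%, and those of chromosome X in 17.5% and 31.4%.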
